A study of Mus musculus with 9 samples.

Results

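Eosinophil progenitors (EoP) from mouse bone marrow are described here by their RNA set beside their own map of trimethylated lysine 4 on histone H3 (H3K4me3). The EoP data were chosen by sample title and comprised 3 of the 9 samples of the series, namely 2 RNA libraries, each from a separate sort, and 1 H3K4me3 chromatin immunoprecipitation library from a single sort. The cells were taken, with no treatment, from Balb/c bone marrow that had been pooled, and were sorted as Lin-, CD34+, c-kit lo and CD125+. Cells of the remaining groups, from the same strain and also untreated, are used for comparison: granulocyte-macrophage progenitors (GMP; Lin-, CD34+, c-kit hi, CD16/32+) and mature eosinophils (Eos; Siglec-F+, CCR3+), with 2 RNA libraries and 1 H3K4me3 library each. The labels do not say whether the sorts used different animals, or whether the chromatin came from a sort that also gave RNA.

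A gene was counted as marked where the authors' peak file annotated at least 1 EoP peak to its promoter. By that rule 11325 of 23471 genes were marked (48.3%), by 15272 of the 19816 listed peaks. The remaining 4544 peaks lay upstream of promoters, in exons, in introns or between genes. The RNA level of a gene was the mean of its summed RPKM (reads scaled for transcript length and library size) in the 2 libraries, which held 9628492 and 12088134 counts. The libraries ranked the genes alike, with a Spearman correlation of 0.98 over the 13407 genes above 0 in both.

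H3K4me3 is laid down by the SET1 and MLL methyltransferases at the starts of genes, where it is read by proteins that take part in the loading and release of RNA polymerase. It is common at promoters of active genes and at many CpG-rich promoters of genes with little RNA. EoP are the committed bone marrow precursors of eosinophils, and they make in bulk the cationic proteins that are packed into the crystalloid granules of the mature cell.

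The EoP label was checked against 4 defining genes. Prg2, for the granule core protein major basic protein, had 84395 and 71559 RPKM and was the most abundant gene of the table. Epx, for eosinophil peroxidase, had 4018 and 3775 RPKM and ranked 6. Il5ra, for the interleukin-5 receptor chain CD125 used in the sort, had 49.3 and 49.2 RPKM, and Gata1, a transcription factor required for the eosinophil lineage, had 14.7 and 13.9 RPKM. All 4 were marked. In GMP, Prg2 had 405 and 93.6 RPKM and Il5ra 0.212 and 0.168 RPKM. In Eos, Prg2 had 1717 and 1058 RPKM and Epx 52.6 and 21.2 RPKM. Il5ra had 56.6 and 88.6 RPKM in Eos and Gata1 11.1 and 12.6 RPKM, so these 2 genes do not separate EoP from Eos. Since the sort selected for CD125, Il5ra is not an independent check.

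The 300 bases around 4 starts are printed because they show where the listed peaks lay. Each runs from 250 bases before the RefSeq start to 50 bases after it in GRCm38.p6, the assembly of the deposited mm10 coordinates, and is written 5′ to 3′ on the strand of the gene. Capitals mark bases inside a listed EoP peak. For Epx (chr11:87875487-87875786, minus strand) no base lay in a peak, although the gene was marked. For Ear2, an eosinophil ribonuclease gene (chr14:44102404-44102703, plus strand), the last 56 bases lay in a peak. For Fos, an immediate early transcription factor gene (chr12:85473640-85473939, plus strand), 207 bases lay in 2 peaks. For Prss34, a basophil protease gene (chr17:25298144-25298443, plus strand), no peak was listed at the promoter. Entries for 17189 of the 23471 genes (73.2%) were matched in the RefSeq promoter table, which is too few for a comparison of base composition over the genes.
Epx: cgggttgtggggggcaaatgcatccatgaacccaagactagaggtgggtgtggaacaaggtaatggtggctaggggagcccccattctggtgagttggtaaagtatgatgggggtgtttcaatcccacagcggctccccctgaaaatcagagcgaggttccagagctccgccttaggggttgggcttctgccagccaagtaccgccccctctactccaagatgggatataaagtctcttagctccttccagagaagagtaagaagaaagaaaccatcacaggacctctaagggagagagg
Ear2: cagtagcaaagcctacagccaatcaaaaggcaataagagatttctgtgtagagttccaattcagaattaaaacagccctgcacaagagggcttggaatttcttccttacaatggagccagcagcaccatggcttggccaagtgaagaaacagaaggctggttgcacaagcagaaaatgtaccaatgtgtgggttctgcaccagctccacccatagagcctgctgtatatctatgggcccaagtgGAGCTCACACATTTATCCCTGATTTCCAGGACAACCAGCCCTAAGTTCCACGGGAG
Fos: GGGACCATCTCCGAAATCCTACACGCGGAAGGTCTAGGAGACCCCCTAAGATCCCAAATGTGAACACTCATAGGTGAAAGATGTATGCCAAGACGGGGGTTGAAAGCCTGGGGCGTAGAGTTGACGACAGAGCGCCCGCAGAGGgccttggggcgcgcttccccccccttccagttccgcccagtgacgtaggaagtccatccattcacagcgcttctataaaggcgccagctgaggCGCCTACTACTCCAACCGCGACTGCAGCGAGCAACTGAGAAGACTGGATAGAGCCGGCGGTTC
Prss34: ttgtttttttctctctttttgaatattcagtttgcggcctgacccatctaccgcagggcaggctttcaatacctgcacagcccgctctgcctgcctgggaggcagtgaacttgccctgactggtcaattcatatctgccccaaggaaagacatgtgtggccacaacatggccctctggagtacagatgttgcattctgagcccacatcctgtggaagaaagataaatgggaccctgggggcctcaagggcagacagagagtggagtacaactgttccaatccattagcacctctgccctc

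The share of marked genes climbed with RNA level and levelled off above about 3 RPKM. Among the 9301 genes of at least 1 RPKM, 93.3% were marked (95% exact binomial interval 92.7 to 93.8), against 18.7% of the 14170 genes below 1 RPKM (18.1 to 19.4). Of the 7558 genes with no count in either library, 320 were marked, which is 4.23% (3.79 to 4.71). The other genes were divided into 10 classes of equal size by RNA level. The marked share was 10.4% in the lowest class and 63.4% in the fourth. In the seventh class, at 3.48 to 5.58 RPKM, it was 95.4%, and in the highest class, from 16.9 RPKM, it was 96.6%. Intervals cover counting error only, since the peaks came from 1 library.

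No step in the marked share was seen at the levels used as limits. Of the 179 genes from 0.9 to 1 RPKM 131 were marked, and of the 162 from 1 to 1.1 RPKM 122 were. Just below 10 RPKM, from 9.9, 28 of 29 genes were marked, and from 10 to 10.1 RPKM 29 of 29 were.

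The same measure in the comparison populations had a different shape at low RNA. At least 1 GMP promoter peak was listed for 56.6% of all genes and at least 1 Eos promoter peak for 50.6%. Among genes below 1 RPKM in their own cell type the shares were 18.7% in EoP, 32.4% in GMP and 26.7% in Eos, and at 10 to 100 RPKM they were 97.0%, 98.1% and 95.9%. The RNA tables differed in the same range of genes: a count was listed for 14350 and 14970 genes of EoP, for 19677 and 20542 of GMP and for 15924 and 16489 of Eos. Of the genes below 1 RPKM, 7558 of 14170 had no count in EoP, 2044 of 14488 in GMP and 5546 of 15017 in Eos. The order of EoP and GMP was not the same at all levels. From 0.0719 to 0.270 RPKM 40.4% were marked in EoP, against 30.2% and 36.2% in the GMP classes from 0.0896 to 0.236 RPKM. In the lowest classes above 0 the share was 10.4% in EoP, up to 0.0217 RPKM, and 20.8% in GMP, up to 0.0494 RPKM. The median pileup of promoter peaks at genes of 1 to 10 RPKM, which is the height of the stacked fragments as deposited, was 25 in EoP, 46 in GMP and 26 in Eos. The read depth of the H3K4me3 libraries is unknown, and its part in these shares was not tested.

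**Figure D1:**
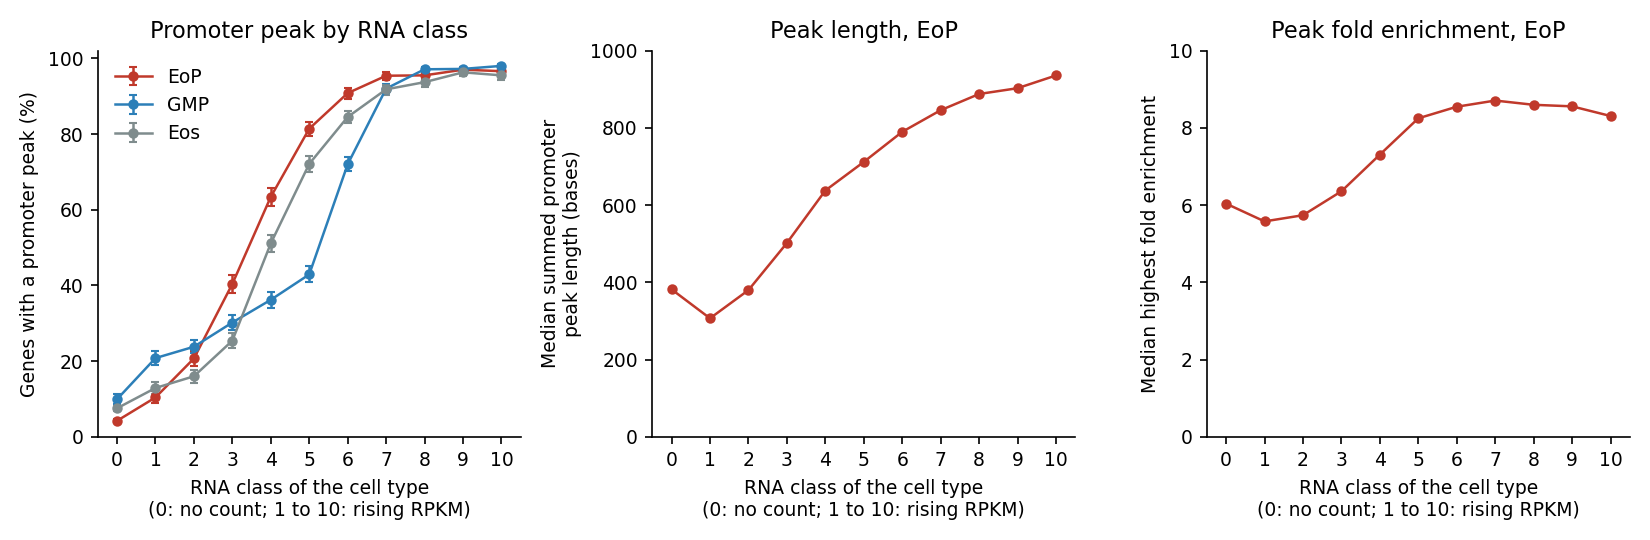
Left, the percent of genes with a listed promoter peak (y axis) by RNA class within each cell type (x axis; 0 is no count, 1 to 10 are equal classes of rising RPKM), with 95% exact binomial intervals, for EoP, GMP and Eos. Middle and right, the median summed promoter peak length in bases and the median of the highest fold enrichment of marked EoP genes by class. The EoP share is 4.23% in class 0 and 95.4% in class 7, length is 382 bases in class 0, 307 in class 1 and 936 in class 10, and fold is highest in class 7 at 8.71.

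Among genes with RNA, the median peak length was larger in each higher RNA class, whereas the median fold enrichment was highest in a middle class. Fold enrichment is the authors' value for each summit, and the highest at a gene's promoter was used. The median summed peak length was 307 bases in the lowest class, 638 in the fourth, 846 in the seventh and 936 in the highest. The median fold was 5.58 in the lowest class and 7.31 in the fourth, was highest in the seventh at 8.71, and was 8.31 in the highest. Over the 11325 marked genes, the Spearman correlation of RPKM was 0.41 with summed length, 0.20 with fold and 0.44 with pileup. Over the 8675 marked genes of at least 1 RPKM it was 0.21 with length, −0.03 with fold and 0.21 with pileup. The genes share the same 3 libraries and are not replicates. Marked genes with no count, at a median of 382 bases and a fold of 6.04, lay above the lowest class in both. Length and fold were themselves weakly related, at 0.11 over marked genes and −0.16 over those of at least 1 RPKM.

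The most abundant genes had long peaks of low fold. For the 137 marked genes of the 143 with at least 100 RPKM, the median fold was 6.88 and the median length 959 bases. For genes of 10 to 100 RPKM these were 8.48 and 922 bases. The same order of fold was found in the other lists, at 8.03 against 9.96 in GMP and at 6.65 against 9.19 in Eos, each by its own RNA. The median pileup at these 2 levels was 27.0 against 28.0 in EoP, 55 against 51 in GMP and 28 against 30 in Eos.

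The ratio of the pileup to the fold of a peak, both as deposited, was larger at abundant genes. Among EoP promoter peaks annotated to 1 gene, its median was 1.78 below 1 RPKM, 2.66 at 1 to 10 RPKM, 3.11 at 10 to 100 RPKM and 3.57 at 100 RPKM or more. At the same 4 levels it was 1.58, 3.79, 4.66 and 5.86 in GMP and 1.40, 2.36, 3.14 and 3.92 in Eos. The Epx peak had a pileup of 25 and a fold of 2.73, and its ratio of 9.17 was the fifth highest of 12867 peaks. Eif2d, a translation initiation factor gene, had a pileup of 36 and a fold of 17.6, a ratio of 2.05. The fold was taken against a background not given in the sources used here.

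**Figure D2:**
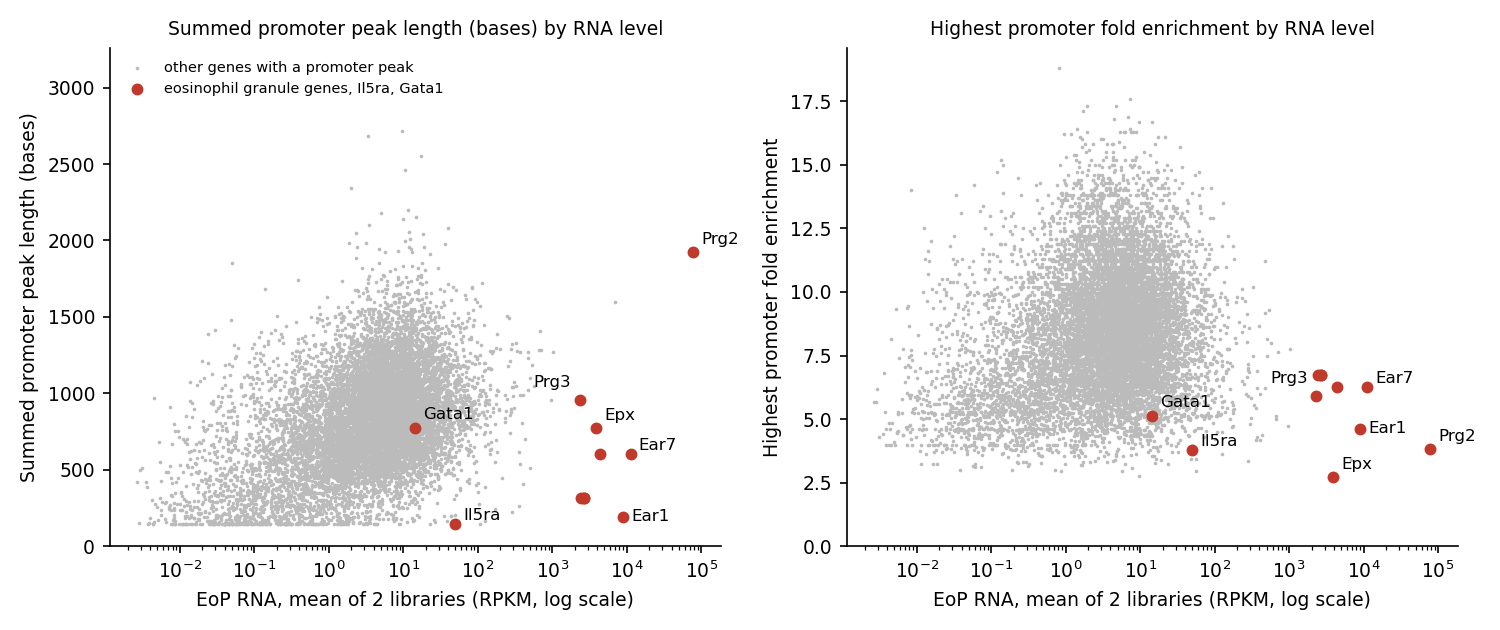
Each point is a gene with an EoP promoter peak and an RNA level above 0; the x axis is the mean RPKM of both EoP libraries on a log scale and the y axis is the summed promoter peak length in bases (left) or the highest promoter fold enrichment (right). Red points are eosinophil granule genes, Il5ra and Gata1. Prg2 lies far to the right at 1923 bases and a fold of 3.82, while Epx at 2.73 is among the lowest folds.

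The granule genes headed the RNA ranking, but their listed peaks were not the strongest. Of the 14 granule genes 12 had at least 1 RPKM and 9 of those were marked, beside 93.3% of all genes of that level. Their marked members had a median summed length of 603 bases and a median fold of 6.26, against 793 bases and 8.15 over all marked genes. Several of the 9 share peaks and are not separate measurements, and both medians are the values of the peaks shared by Ear6 and Ear7. The Prg2 peak was 1923 bases long with a fold of 3.82 (chr2:84980913-84982835). The Epx peak was 772 bases long with a fold of 2.73. Prg3, for the major basic protein homologue, had 2434 and 2220.3 RPKM and a peak of 957 bases with a fold of 5.92.

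The Ear genes encode eosinophil ribonucleases and lie in near-identical copies, so that reads can be split or shared between them. Ear7 had 11905 and 10603 RPKM, Ear1 9012 and 8897 RPKM, and Ear6 4754 and 4081 RPKM. Ear2 had 2668 and 2213 RPKM, and Ear3 and Ear12, whose values were identical, 2896 and 2450.2 RPKM. Ear6 and Ear7 shared 2 peaks of 603 bases in all, Ear2, Ear3 and Ear12 shared 1 peak of 319 bases, and Ear1 had 1 peak of 194 bases with a fold of 4.63. The 3 expressed granule genes without a listed promoter peak, named after their values were seen, were Ear10 (20.6 and 19.3 RPKM), Ear11 (6.72 and 6.3 RPKM) and Ear5 (1.18 and 0.889 RPKM). The nearest peak to Ear10 was 2078 bases from its start.

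The Prg2, Epx, Prg3, Ear1, Il5ra and Gata1 peaks did not reach the annotated start. Distances here are in bases into the gene. The Prg2 peak ran from 452 to 2374, the Epx peak from 596 to 1367, the Prg3 peak from 656 to 1612 and the Ear1 peak from 770 to 963. The Il5ra peak ran from 995 to 1139, was 145 bases long, the shortest length of any marked gene, and had a fold of 3.79. A second Il5ra peak in an intron, 22977 to 23304 bases in, was stronger, at 328 bases and a fold of 6.68. Gata1 had 2 peaks, from 147 to 295 and from 384 to 1009, with a highest fold of 5.14.

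The other lists also had the peaks of Prg2 and Epx beyond the start. The Prg2 promoter peak was 1923 bases long in EoP, 616 in GMP, from 815 to 1430, and 630 in Eos, from 180 to 809. The Epx peak was 772 bases long in EoP, 89 in GMP and 158 in Eos. Il5ra had its 1 EoP peak of 145 bases and no promoter peak in the GMP list, and 403 bases over 2 peaks in the Eos list, where its RNA was 56.6 and 88.6 RPKM. Peaks of different lists were called separately, and their lengths are given side by side with no test.

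**Figure D3:**
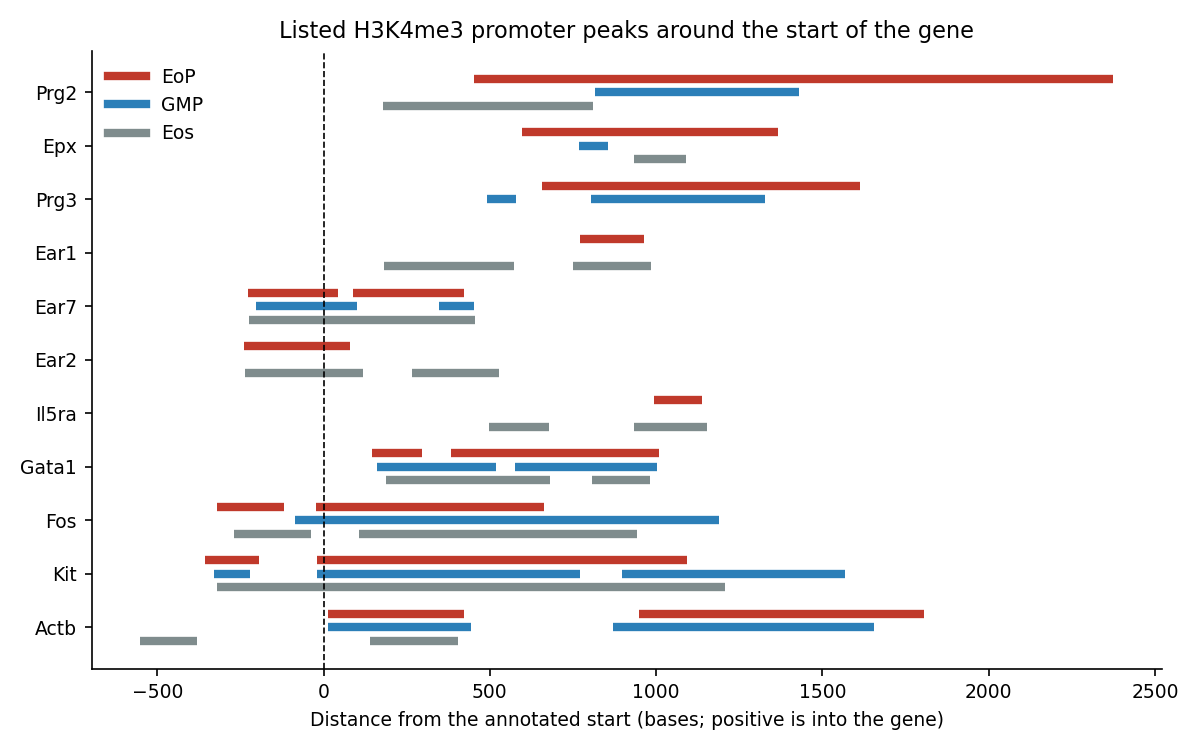
Horizontal bars are listed promoter peaks of EoP (upper bar), GMP (middle) and Eos (lower) for 11 genes, on an axis of bases from the annotated start, with positive values into the gene. For Prg2, Epx, Prg3, Ear1, Il5ra and Gata1 no EoP bar touches the start at 0; for Ear7, Ear2, Fos and Kit one does. The Ear2 bars are placed from the start of Ear3 and Ear12 (chr14:44102887), which share its EoP peak. Its own start (chr14:44102654) also lies in that peak.

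A position beyond the start was most frequent at the highest RNA level, and did not rise evenly with RNA. Each peak was placed from the 1 start listed with it, so that a peak beyond that start can cover another start of its gene. At Cd63, for example, both promoter peaks were placed beyond their listed starts, from 935 to 1409 and from 756 to 900. Another Cd63 start nevertheless lay inside a peak. Of the 112 genes of at least 100 RPKM whose promoter peaks were annotated to that gene alone, 63 had all of their peaks beyond the listed start (56.2%), and 31 had a peak across it (27.7%). Below 1 RPKM these shares were 38.2% and 40.8% of 1931 genes, at 1 to 10 RPKM 30.3% and 50.4% of 4584 genes, and at 10 to 100 RPKM 34.8% and 45.7% of 2154. By its own RNA, the share with all peaks beyond the start at 100 RPKM or more was 40.6% in GMP and 59.6% in Eos, against 15.5% and 19.0% at 1 to 10 RPKM and 25.2% and 27.8% below 1 RPKM. In EoP, peaks across the start had a median fold of 7.98 at genes of at least 100 RPKM, and peaks beyond it 5.54.

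Actb and Tmsb4x were among the 12 most abundant named genes. Actb, for beta-actin, had 982 and 1070.5 RPKM and 2 peaks of 1269 bases in all with a fold of 7.76. Tmsb4x, for an actin-binding peptide, had 1034 and 900.1 RPKM and a peak of 959 bases with a fold of 4.75. The ribosomal RNA entry Rn45s, passed over in the naming of genes, took 9.53% and 8.10% of counts.

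The genes with the longest promoter peaks had more RNA than marked genes in general. The 100 genes with the longest summed length, 1655 to 3112 bases, had a median of 9.74 RPKM, against 4.03 over all 11325 marked genes, and 49 of them had at least 10 RPKM, against 24.7% of all marked genes. Prg2 was the 1 gene among them that was also among the 100 most abundant, of which 95 were marked (0.839% of all marked genes). Several annotated starts were listed for 54 of these 100 genes and for 1200 of all marked genes. All 100 were also marked in the GMP list and in the Eos list, as were 99.7% and 97.3% of all marked genes. Gse1, for a subunit of a histone demethylase complex, had 6 peaks of 3112 bases around 2 groups of starts at 7.28 and 7.73 RPKM. Hnrnpf, an RNA-binding protein gene, had 6 peaks of 2719 bases at 8.60 and 10.5 RPKM. Trib1, a pseudokinase gene with a part in eosinophil commitment in mice, had 2151 bases in 2 peaks at 22.8 and 7.06 RPKM.

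The genes with the strongest folds had a median RNA level close to that of marked genes in general, but fewer of them lay at low or high levels. The 100 genes with the highest promoter fold had a median of 4.35 RPKM, against 4.03 over all marked genes. At least 10 RPKM was reached by 17 of them, against 24.7% of all marked genes, and 0 were among the 100 most abundant. Below 1 RPKM lay 7 of the 100, against 2650 of the 11325 marked genes. Several starts were annotated for 6 of the 100. Eif2d had 6.37 and 8.15 RPKM, a peak of 467 bases across its start and a fold of 17.6. Ggcx, for the vitamin K-dependent carboxylase, had 2.09 and 1.78 RPKM and a fold of 17.3. Ndc80, a kinetochore gene, had 13.7 and 15.4 RPKM and a fold of 16.7. Their summed lengths, 467, 454 and 675 bases, were shorter than the median of 793.

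Genes of the basic cell machinery were marked nearly without exception, and most abundant genes in general were marked too. All 39 DNA replication genes, all 28 mitosis genes, all 28 endoplasmic reticulum folding genes and all 72 oxidative phosphorylation genes were marked. At least 10 RPKM was reached by 27, 25, 26 and 63 of them, in that order. The share was 93.3% among all genes of at least 1 RPKM and 96.9% among those of at least 10 RPKM. At such shares, full counts say little of these lists. Ube2c, a ubiquitin-conjugating enzyme of mitotic exit, had 132 and 127 RPKM and a fold of 13.5. Atp5b, for a subunit of ATP synthase, had 476 and 472 RPKM and a fold of 11.2, and Hsp90b1, an endoplasmic reticulum chaperone, 516 and 480.2 RPKM and 8.16. Of 34 proteasome genes 33 were marked, all but Psmc1 at 16.3 and 17.3 RPKM, and of 80 ribosomal protein genes 78 were. Of the ribosomal protein genes, 9 were marked below 1 RPKM, among them Rpl26, which was listed with no count beside a peak of 668 bases. Psmc1 and Rpl26 were named after their values were seen, and ribosomal protein genes have many processed copies that can share their reads.

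Transcription factors of the eosinophil lineage were marked about as often as other expressed genes, with long peaks of low fold. Of 29 found, 27 had at least 1 RPKM and 25 of those were marked, beside 93.3% of all genes of at least 1 RPKM, and 1 more was marked below 1 RPKM. Their median summed length was 994 bases and their median fold 5.72, against 793 bases and 8.15 over all marked genes. Myb, a progenitor regulator, had 115 and 129 RPKM and 1147 bases at a fold of 5.21. Cebpe, needed for granule formation, had 41.1 and 32.5 RPKM and 1397 bases at 4.73. Sfpi1, which encodes PU.1, had 55.2 and 47.8 RPKM and 1026 bases at 7.99, and Xbp1, needed for the secretory capacity of eosinophil precursors in mice, 42.6 and 35.2 RPKM and 832 bases at 9.69. Gata2, named after its value was seen, had 5.73 and 19.8 RPKM and no EoP promoter peak, with the nearest peak 4444 bases away; the GMP list had 445 bases and the Eos list 308 bases at its promoter.

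Of the expressed receptor and surface genes several had no listed promoter peak, beside a marked share of 93.3% among all genes of at least 1 RPKM. Of the 7 genes of the sort gates, all of at least 1 RPKM, 6 were marked. Kit had 15.5 and 20 RPKM and 1276 bases, Cd34 8.33 and 10.7 RPKM and 529 bases, and Siglec5, the symbol used here for the Siglec-F gene, 45.0 and 45.7 RPKM and 987 bases. Ccr3, the eotaxin receptor used to sort Eos and named after its value was seen, had 2.61 and 4.62 RPKM and no EoP promoter peak, against 928 bases in the Eos list. Of 26 cytokine receptor genes 18 had at least 1 RPKM and 14 of those were marked, as were 3 below 1 RPKM. Csf2rb, the beta chain shared by the receptors for interleukin-3, interleukin-5 and GM-CSF, had 57.7 and 66.9 RPKM and 803 bases. Of 29 eosinophil surface genes 22 had at least 1 RPKM and 17 of those were marked, led by Cd24a at 528 and 423 RPKM and 1021 bases. Of 16 lipid mediator genes 7 had at least 1 RPKM and all 7 of those were marked, among them the lipoxygenase gene Alox15, at 405 and 449.7 RPKM with 703 bases and a fold of 4.39.

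**Figure D4:**
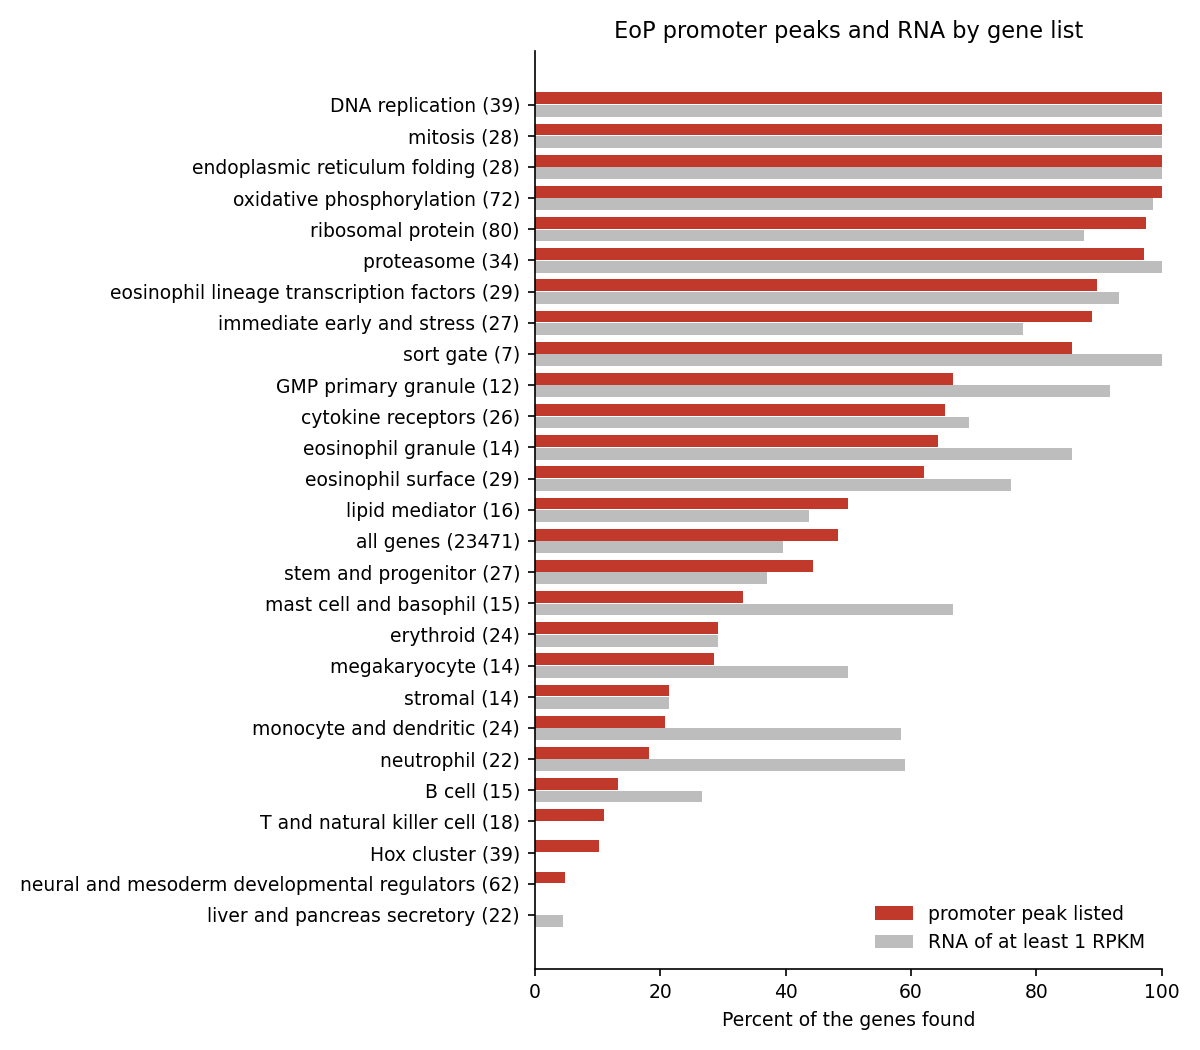
Bars give, for each gene list and for all genes, the percent of the genes found (number in brackets) with a listed EoP promoter peak (red) and with an EoP RNA level of at least 1 RPKM (grey). Machinery lists reach 97.1% to 100% for peaks, and in the neutrophil, monocyte and mast cell lists the red bar is shorter than the grey one.

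Markers of neutrophils, of monocytes and dendritic cells, and of mast cells and basophils were often present as RNA without a listed peak. Of 22 neutrophil genes 13 had at least 1 RPKM and 3 of those were marked, and of 24 monocyte and dendritic genes 14 had at least 1 RPKM and 3 of those were marked. Of 15 mast cell and basophil genes 10 had at least 1 RPKM and 4 of those were marked. In further lists, of the genes of at least 1 RPKM, 7 of 10 stem and progenitor and 2 of 3 stromal genes were marked. So were 4 of 7 erythroid, 3 of 7 megakaryocyte and 1 of 4 B cell genes. Among all genes of at least 1 RPKM the share was 93.3%. Below 1 RPKM, 1 neutrophil, 2 monocyte and dendritic and 1 mast cell and basophil genes were marked. In bulk samples, fewer cells of a type and less RNA per cell cannot be told apart. Neither any of the 18 T cell and natural killer genes nor any of the 39 Hox genes reached 1 RPKM. S100a9, a calcium-binding protein of neutrophils, had 189.7 and 62.9 RPKM, and the nearest peak was 180368 bases away. It had no promoter peak in the GMP or Eos list either, at 897 and 256 RPKM in GMP and 5816 and 2403 RPKM in Eos. Of the 22 neutrophil genes 4 were marked in EoP, 5 in GMP and 12 in Eos, beside 48.3%, 56.6% and 50.6% of all genes. Pglyrp1, an antibacterial protein of the neutrophil list, had 225 and 201 RPKM and was marked, with 447 bases.

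For the primary granule genes of GMP, RNA in EoP stood beside absent peaks or peaks of unequal length. Of 12 such genes 11 had at least 1 RPKM in EoP, 8 were marked in EoP, 12 in GMP and 2 in Eos. All 8 had at least 1 RPKM, a level at which 93.3% of all genes were marked. Their summed lengths ran from 145 to 754 bases with a median of 416, against 793 over all marked genes. Mpo, for myeloperoxidase, had 303 and 408 RPKM in EoP and a peak of 264 bases, against 1050 bases in GMP. Ctsg, for cathepsin G, had 73.1 and 139 RPKM in EoP and 145 bases, against 2119 in GMP. Elane, for neutrophil elastase, had 66.0 and 64.2 RPKM in EoP and no EoP peak within 11276 bases, against 648 bases in GMP. Nkg7 had 168 and 180.2 RPKM in EoP and 697 bases in 3 peaks, against 1483 bases in GMP. The summed RPKM of the list was 995 and 1167 in EoP and 9335 and 8336 in GMP.

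Abundant RNA without a promoter peak was uncommon. Of the 2888 genes of at least 10 RPKM, 96.9% were marked and 89 were not, and for 88 of the 89 no listed peak of any gene lay within 1000 bases of a start. Of these 88, 32 were marked in the GMP list, 20 in the Eos list, 12 in both and 48 in neither, and 7 were histone genes. The GMP list marked 56.6% of all genes and the Eos list 50.6%. Of genes at 10 to 100 RPKM in their own cell type these lists marked 98.1% and 95.9%. Hist1h4d, a histone H4 gene of a cluster of near-identical copies, had 566 and 601 RPKM, and its nearest peak was 3414 bases away. Rab7, a small GTPase of late endosomes, had 70.3 and 74.2 RPKM with the nearest peak at 30690 bases, and no promoter peak in either other list.

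Of those 89 genes, the basophil and mast cell genes with the most RNA were uneven between the EoP libraries. Prss34 had 92.9 RPKM in EoP 1 and 641 RPKM in EoP 2. Mcpt8, for a basophil protease, had 67.3 and 421 RPKM, and Cpa3, for mast cell carboxypeptidase, 88.8 and 223 RPKM. All 3 were higher in EoP 2. They were named for having no EoP promoter peak, and each had one in the GMP list, of 630, 437 and 252 bases. Other genes of the mast cell and basophil list were marked in EoP. Hdc, for histidine decarboxylase, had 110.1 and 95.6 RPKM and was marked by 280 bases. Ms4a2, for the beta chain of the high-affinity IgE receptor, had 17.4 and 52.2 RPKM, also higher in EoP 2, and was marked by 196 bases. The summed RPKM of the 15 mast cell and basophil genes was 426 and 1548 for EoP, against 351 and 327 for GMP and 86.9 and 62.8 for Eos. Fcer1a, for the high-affinity IgE receptor alpha chain, had 23.1 and 74.6 RPKM in EoP and no promoter peak in any of the 3 lists. Whether the sort used for chromatin held as many of these cells as either RNA sort was not measured.

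Most marked genes with no RNA count were marked in the other lists too, as were most marked genes in general. Of the 320, 313 (97.8%) were also marked in the GMP list and 268 (83.8%) in the Eos list, against 99.7% and 97.3% of all marked genes, and 66 had no count in GMP or Eos RNA either. For 154 of them (48.1%) at least 1 promoter peak was also annotated to a neighbouring gene, against 24.2% of all marked genes, and 46 were microRNA or small nucleolar RNA entries. Atp6v0c, a proton pump subunit gene with a pseudogene in the same table, had 1399 bases in 2 peaks shared with that pseudogene, and Tmem116 had 1199 bases shared with Erp29. Itpka, for an inositol trisphosphate kinase, had 989 bases in 2 peaks of its own.

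Genes of development had little or no RNA in EoP and few were marked, as among other genes with little or no RNA. Of 62 neural and mesoderm regulators 3 were marked in EoP, 30 in GMP and 8 in Eos, and of 39 Hox genes 4, 12 and 5. The EoP shares were 4.84% and 10.3%, beside 4.23% of all genes with no count and 18.7% of all genes below 1 RPKM. Of all genes below 1 RPKM in their own cell type, 32.4% were marked in GMP and 26.7% in Eos. These sets hold unequal numbers of genes without a count. No gene of either list had at least 1 RPKM in EoP, and 43 of the 62 and 23 of the 39 had no count. Hoxb4 had 0.461 and 0.468 RPKM and 444 bases in EoP, against 1272 bases in GMP and 803 in Eos. Of 22 secretory genes of liver and pancreas, 0 were marked in any of the 3 lists.

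The 2 EoP libraries parted at a small set of genes. Of the 9700 genes with at least 50 counts in the higher library, 70 (0.722%) were at least 4-fold higher in EoP 1 and 35 (0.361%) at least 4-fold higher in EoP 2 on the scale of log2(CPM + 0.5), where CPM is the count scaled to a common library size. The SD of the log2 ratio over the 9700 genes was 0.552. As samples of 1 group, the libraries allow no test of these differences. Of the 70 genes 54 were marked (77.1%), and of the 35 genes 7 were (20%), while 93.4% of all 9700 were. The genes higher in EoP 2 had a median of 0.943 RPKM, and in the RNA class that holds that level, from 0.862 to 1.91 RPKM, 81.4% of genes were marked. That class matches the median only. Of the 35 genes 16 had at least 1 RPKM, and in the lower classes with RNA the marked share ran from 10.4% to 63.4%. Genes entered by their count in the higher library, so the shares describe genes selected in that way and test nothing. The genes higher in EoP 1 had a median of 8.91 RPKM.

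The genes higher in EoP 1 were led by immediate early and heat shock genes. Fosb had 32.9 RPKM in EoP 1 and 0.0298 in EoP 2, a log2 ratio of 8.51. Fos had 163 and 0.609 RPKM, Egr1 53.3 and 0.0732, Jun 93.1 and 1.04, and Dusp1, a phosphatase of MAP kinases, 299 and 1.62. Each of these 5 genes was marked, Dusp1 by 1161 bases in 3 peaks and Fos by 893 bases in the 2 peaks seen in the printed sequence. Of the 27 genes of the immediate early and stress list, which was chosen with earlier results of these data known, 24 were marked. At least 1 RPKM was reached by 21, and 20 of those were marked, beside 93.3% of all genes of that level. Of the 23 with enough counts, 20 were at least 4-fold higher in EoP 1, beside 0.722% of all 9700 genes. The summed RPKM of the list was 1414 and 78.5 for EoP, against 146 and 599 for GMP and 307 and 826 for Eos. The list was therefore uneven in each cell type, and its median fold of 5.88 in EoP was lower than the 8.15 of all marked genes. Hspa1a, a heat shock gene near-identical to the marked Hspa1b, had 34.5 and 0.188 RPKM and no EoP promoter peak. Rgs1, a regulator of G protein signalling, had 53.7 and 0.789 RPKM, with the nearest peak 244977 bases away.

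The named genes higher in EoP 2 included lymphoid and platelet genes at low level and, at high level, Prss34. Igll1, the surrogate light chain gene of pre-B cells, had 0.0543 RPKM in EoP 1 and 7.72 in EoP 2. Rag1 and Rag2, the antigen receptor recombinases, had 0 and 0.461 RPKM and 0.0697 and 0.973 RPKM. Ppbp, a platelet chemokine gene, had 0.131 and 3.47 RPKM, and Il7r, the interleukin-7 receptor chain, 0.162 and 1.46 RPKM. None of these 5 was marked. The summed RPKM of the 15 B cell genes was 7.52 and 24.9 in EoP, against 12.8 and 10 in GMP and 58.2 and 20.4 in Eos, and 2 of the 15 were marked in EoP. Of the 10 genes named at this end, the 1 marked gene was Evi2a-evi2b, by a peak of 274 bases shared with a neighbour.

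**Figure D5:**
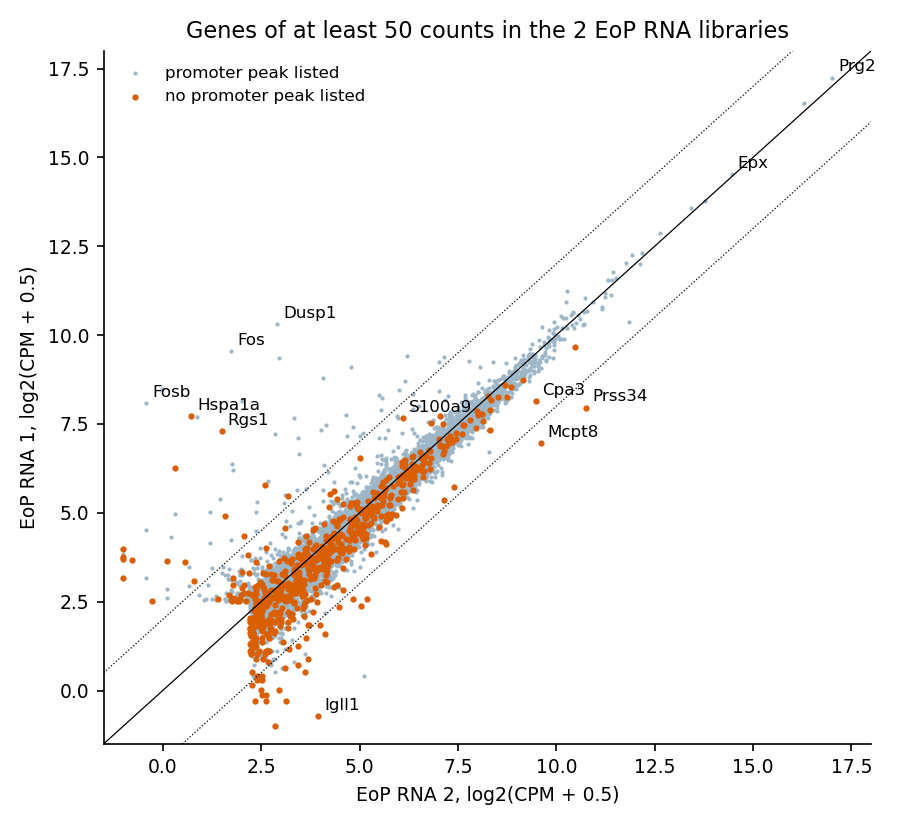
Each point is a gene of at least 50 counts in 1 of the EoP RNA libraries, by log2(CPM + 0.5) in EoP 2 (x axis) and EoP 1 (y axis); orange points have no listed EoP promoter peak and blue points have one. The solid line is equality and the dotted lines are 4-fold. Fosb, Fos and Dusp1 lie above the upper line in blue, and Prss34, Mcpt8 and Igll1 below the lower line in orange.

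Granule genes were close in level in both libraries. Of the 11 with enough counts 0 were at least 4-fold apart, beside 105 of all 9700 genes (1.08%), a share at which a count of 0 says little of the list. The log2 ratio of EoP 1 over EoP 2 was 0.23 for Prg2, 0.08 for Epx and 0.01 for Ear1. The summed RPKM of the 14 granule genes was 125007 and 108275 for EoP, against 526 and 115 for GMP and 8732 and 6092 for Eos. Il5ra had 384 and 385 CPM in EoP, and Gata1 differed by 0.07 on the log2 scale.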

How the data were processed

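RNA was measured in 2 EoP libraries and H3K4me3 in 1, with GMP and Eos as comparison. The authors' RNA files give, per RefSeq transcript, an estimated count as whole numbers and an RPKM, made by tools not given in the sources used here. Per the file headers, the authors' peak lists give a pileup signal, −log10 p and q values and a fold enrichment for each summit, with the length of its peak; no caller or control is named. The submitters' processing notes list mm10 as the build and Bowtie 1.0.0 and STAR 2.4.0c as tools, with no roles. Coordinates are 1-based.

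The 31213 lines of an RNA table were summed per gene symbol to 23471 genes. Lines of the peak lists, 1 per summit, were reduced to unique intervals. A promoter peak annotated to several genes, as 2405 of 15272 EoP promoter peaks were, was given to each of them. The length of a gene's promoter peaks was summed and its highest fold and pileup taken. Fold, score and length were used within a list or side by side, without a test. Ratios between libraries used log2(CPM + 0.5) from the deposited estimated counts. The script for the ratio between libraries was tested on simulated data, as a check of its code only. Python 3.11.15, pandas 2.3.3 and scipy 1.17.1 were used, and edgeR 4.0.16 for TMM factors in 1 alternative.

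The 26 gene lists, the markers and the rule for naming genes were chosen with earlier results of these data known. Named are the markers, the 12 most abundant genes, the 10 most abundant without a promoter peak, the 10 with the longest and the 10 with the strongest promoter peaks, the 10 longest without a count, the 10 most different between the libraries in each direction, and up to 6 genes of a list by level; gene models, small RNAs and receptor segments are passed over. One of the abundant genes so named is left unreported. Genes named outside this rule are said to have been chosen after their values were seen. Alternatives were the gene level (highest transcript, each transcript once, 1 library), the limits of 0.5 and 5 RPKM, a stricter −log10 q, wider or narrower rules for a gene's peaks, counts of at least 20 or 200, RPKM in place of CPM, and TMM factors.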

Additional observations from a re-analysis of the deposited data

Results flagged for a closer look

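Of the EoP H3K4me3 peaks, 4544 lay outside promoters and enter no comparison of the report; they are given here because they are data outside the main measure. They were short, with a median of 226 bases, and had a median fold of 4.92, against 481 bases and 6.75 for the 15272 promoter peaks. By the authors' annotation 1600 were intergenic, 1414 in introns, 1004 upstream and 526 in exons. Of the 4544, 3496 overlapped a peak of the GMP list and 2965 a peak of the Eos list by at least 1 base, and of the 15272 promoter peaks 15057 and 14025 did. All 11 EoP peaks with a fold above 20 lay outside promoters, up to 34.2, while the highest fold at a promoter was 18.8.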

How the results depend on the processing

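The results that moved most depended on which peaks were given to a gene. At a −log10 q of at least 8.23, the median of the list, 82.2% of genes of at least 1 RPKM were marked, 9.27% of those below and 1.76% of those with no count. The correlation of RNA level with length was then 0.24 and that with fold turned to −0.04; 378 abundant genes were unmarked and 133 without a count were marked. Chosen after seeing the data, only peaks annotated to 1 gene gave 73.6%, 13.6% and 2.25%, correlations of 0.47 and 0.24, and 622 and 170 genes. Annotated peaks within 3000 bases gave 19.6% and 4.86% for the low classes and correlations of 0.43 and 0.22. Any listed peak within 3000 bases, also chosen later, gave 94.4%, 20.9% and 5.8%, and 0.42 and 0.22, and within 1000 bases 0.41 for length. With expression set at 0.5 RPKM the shares were 91.2% and 14.7%, and at 5 RPKM 96.5% and 34.7%. Among genes of at least 1 RPKM the correlations were 0.21 and, turned in sign, −0.03. Length was 0.40 with the highest transcript, with the longest peak and, chosen later, over genes with 1 start. The length-weighted fold gave 0.18, and pileup in its place, also chosen later, 0.44. Without EoP 1 and without EoP 2, in that order, the marked share of genes without a count was 5.26% and 5.54%, their number 447 and 505, the length correlation 0.41 and 0.41 and the fold correlation 0.21 and 0.20; the marked share of expressed genes was 93.1% and 93.6%, of genes below 1 RPKM 18.6% and 19.3%, unmarked abundant genes were 89 and 85, and marked listed genes 435 and 435. Genes higher in EoP 2 numbered 68 at 20 counts, 8 at 200 counts and 60 with log2(RPKM + 0.1), against 35; those higher in EoP 1 ran from 49 to 101, against 70. TMM factors shifted log2 ratios by 0.127 and gave 73 and 32. The cause of these moves was not tested, except that other limits take in other genes. In all, 46 values were labelled close to those reported, 42 moved and 2 turned in sign, by rules that differ in width. A share was close inside its binomial interval, a count within a fixed fold, and a correlation within the SD of the 2 single-library values. By these rules 447 genes against 320 were close, and a length correlation of 0.40 against 0.41 had moved. No paired analysis was possible because the results come from no test and the H3K4me3 library has no replicate. The peaks rest on 1 library of unknown depth, so a gene without a listed peak is not shown to lack the mark.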
